A study of Mus musculus with 14 samples.

Results

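The genes described here are 10 genes of MHC class II antigen presentation: H2-Aa, H2-Ab1, H2-Eb1, H2-DMa, H2-DMb1, H2-Oa, Cd74, Ciita, Ctss and Ifi30. They were chosen by name, as rows of the deposited count table, with earlier results of these data known. They are 10 of 55291 gene rows, and all 10 passed the filter on low counts, which left 17933 genes to test. Frozen nodules of lung tumor from C57BL/6 mice gave the RNA, and all mice carried the HER2 Exon20YVMA genotype, an insertion in the kinase domain of the receptor tyrosine kinase HER2. The 14 libraries fall into 5 groups by long-term treatment: vehicle (n = 2), mobocertinib (TAK-788; n = 3), T-DM1 (n = 3), the combination of both agents (n = 3), and nodules with acquired resistance to mobocertinib given alone (called resistant; n = 3). Mobocertinib inhibits the kinases of mutant EGFR and HER2, and T-DM1 is the antibody trastuzumab linked to a drug that blocks microtubules. The labels give neither the promoter or Cre that drives the allele, nor the doses, nor whether each library came from a separate mouse, so the p-values speak only for the spread among these libraries, which may be technical.

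Class II molecules are pairs of an alpha and a beta chain that show peptides from endosomes to CD4 T cells. The invariant chain, Cd74, blocks the peptide groove until proteases such as Ctss cut it away, and the remaining fragment is exchanged for peptide with the help of H2-DM, which H2-O restrains. Dendritic cells, B cells and macrophages carry class II constitutively, alveolar type 2 cells of the lung do so as well, and other cells can gain it under interferon-gamma. The coactivator Ciita switches on the class II chains, H2-DM and Cd74, acting at a shared promoter module of an X box, bound by RFX, and a Y box, bound by NF-Y.

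Both boxes of this module were matched in 2 of the genes and the Y box core without the X box letters in 2 more, and these sequences are shown because class II genes are known to be switched on through the module. RefSeq promoter windows (build GRCm38.p6), from 250 bases before to 50 bases after the start, were at hand for 7 of the 10 genes. Both strands were searched for a Y box core, TGATTGG, for the inner part of an X box, ACNNATGAT, and for a cAMP response element, TGACGTCA. No pair of these motifs overlapped in the windows shown. The Y box core was found in 4 of the 7 genes and in 7.82% of 32851 mouse promoters. The X box letters were found in 2 of the 7, and in 2.08% of promoters. Both motifs together occurred in 0.240% of promoters. In H2-Eb1 the Y box core began at position −61 and the X box at −88, counted from the start, and in H2-DMb1 at −63 and −91, so the motif starts lay 27 and 28 bases apart. The Y box core began at −50 in H2-Aa and at −45 in H2-Oa. H2-Aa had a cAMP response element at −74 and no match to the X box letters, which does not show that an X box is absent. None of the 3 motifs matched in the windows of H2-DMa, Ctss and Ifi30, which says only that these letters are not there. The 130 bases before each start are given with the motifs in capitals.
H2-Aa (chr17:34287824-34287953, − strand): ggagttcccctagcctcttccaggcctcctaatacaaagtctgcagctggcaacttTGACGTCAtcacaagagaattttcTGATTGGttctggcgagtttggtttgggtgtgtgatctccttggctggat
H2-Eb1 (chr17:34305737-34305866, + strand): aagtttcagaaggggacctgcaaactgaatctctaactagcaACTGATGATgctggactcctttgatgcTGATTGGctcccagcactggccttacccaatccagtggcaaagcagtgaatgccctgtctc
H2-DMb1 (chr17:34153061-34153190, + strand): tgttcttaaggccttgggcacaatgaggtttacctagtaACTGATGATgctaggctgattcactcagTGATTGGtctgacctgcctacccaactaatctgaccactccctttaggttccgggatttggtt
H2-Oa (chr17:34092249-34092378, + strand): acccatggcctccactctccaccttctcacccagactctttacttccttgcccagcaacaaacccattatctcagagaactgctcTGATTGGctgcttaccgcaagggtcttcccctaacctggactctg

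The libraries held 19.3 to 31.3 M counts, and the number that follows a group's name only names a library of it. Of 6 epithelial markers, all were detected in every library (summed level 1475 to 5568 CPM, counts per M library counts, scaled by the TMM factors of edgeR). Nkx2-1 stood at 81.8 to 224 and Epcam at 168 to 434 CPM. Cdh1 alone was called, higher than vehicle in all 4 comparisons, which is 16.7% of the list beside 16.7% to 22.0% of all genes. Both vehicle libraries stood apart: messenger RNAs under 1 kb took 25.7% and 30.9% of their counts, against 6.79% to 12.0% in the other 12, and their TMM factors were 0.677 and 0.542, against 0.988 to 1.23. Each comparison with vehicle therefore rests on 2 libraries of another RNA make-up. The deposited values in TPM, which are scaled for transcript length and to a fixed total, put the other groups higher than vehicle for most genes: the median gene's difference on the log2(TPM + 1) scale was 1.11 for mobocertinib, 1.17 for T-DM1, 1.18 for the combination and 1.27 for resistant nodules, whereas the TMM-scaled medians lay between 0.08 and 0.18. Differences from vehicle are given on the TMM scale, and those in TPM are read against these medians. The part of RNA make-up in the results was not tested. Comparisons among the other 4 groups do not subtract vehicle values, although the vehicle libraries enter the shared fit.

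Per length, Cd74 was the most abundant of the 10 genes in every group, with mean TPM from 1300 ± 790 (SD, n = 3) in mobocertinib to 2700 ± 1053 (n = 3) in T-DM1. H2-Oa and Ciita had the lowest means, 0.410 to 6.64 and 0.900 to 5.25 TPM. Summed over the 10 genes, the level was 8658 and 9095 CPM in vehicle. It was 1066, 3650 and 3106 in mobocertinib, 4766, 7891 and 3408 in T-DM1, 3957, 3167 and 4124 in the combination, and 4748, 4638 and 1317 in resistant nodules. All 12 drug-exposed libraries lay below both vehicle libraries in this sum on the TMM scale, and the drug-exposed groups overlapped each other. As a plain share of library counts, the sum was 0.469% and 0.616% in vehicle. Mobocertinib (0.105% to 0.428%) and the combination (0.34% to 0.466%) lay below it, while T-DM1 (0.375% to 0.815%) and resistant nodules (0.132% to 0.584%) overlapped it. In bulk RNA, fewer cells that express a gene and less RNA of it per cell cannot be told apart.

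**Figure D1:**
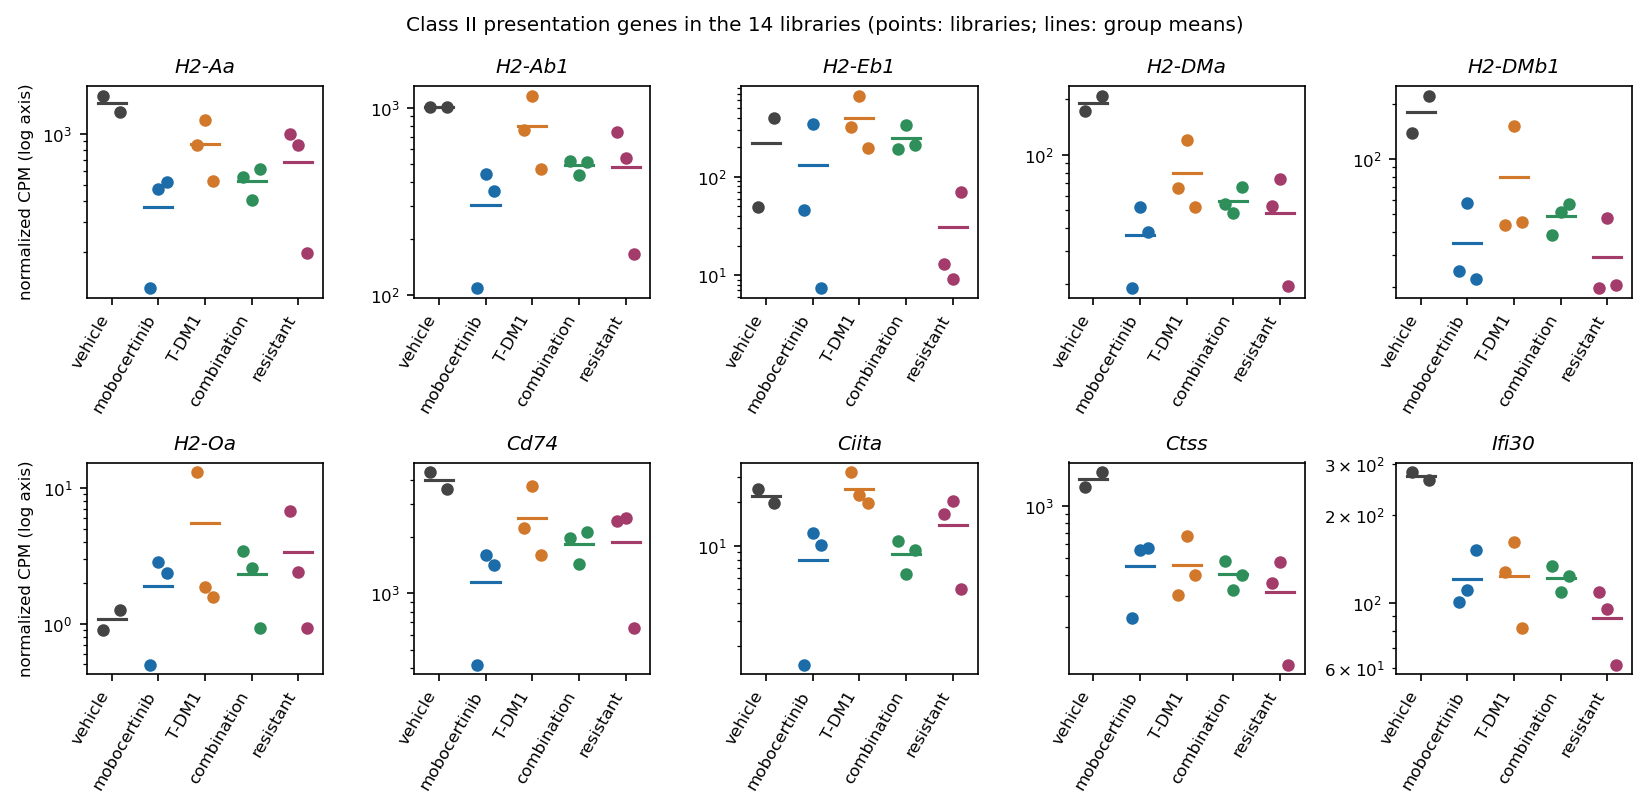
Levels of the 10 class II presentation genes in each library. Each panel is a gene, the vertical axis is TMM-normalized CPM on a log scale, points are libraries by group and lines are group means. For Ctss the 12 drug-exposed libraries (120 to 672 CPM) lie below both vehicle libraries (1303 and 1580 CPM) on this scale, whereas H2-Eb1 and H2-Oa overlap between vehicle and most groups.

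The peptide-binding chains of the I-A molecule are H2-Aa, the alpha chain (chr17:34282744-34287823 in mm10), and H2-Ab1, the beta chain (chr17:34257689-34269419). H2-Aa measured 1681 and 1346 CPM in vehicle, 122, 470 and 517 in mobocertinib, 857, 1211 and 527 in T-DM1, 551, 408 and 617 in the combination, and 991, 857 and 197 in resistant nodules. Every drug-exposed library was below both vehicle libraries on the TMM scale. As a share of library counts, T-DM1 2 (0.125%) and resistant 1 (0.122%) were above both vehicle libraries (0.114% and 0.0729%). In TPM, T-DM1 (621.3 to 1405) lay above both vehicle libraries (616.4 and 396.5). H2-Ab1 measured 1016 and 1013 CPM in vehicle, 109, 445 and 360 in mobocertinib, 763, 1163 and 471 in T-DM1, 522, 440 and 517 in the combination, and 740, 543 and 165 in resistant nodules. Here, on the TMM scale, T-DM1 overlapped vehicle through its second library, and the other 3 groups lay below it. Within a library, H2-Ab1 counts were 60.4% to 108% of H2-Aa counts, a proportion that no scaling between libraries can alter. Over the 14 libraries their log2 CPM correlated at r = 0.97, and at 0.98 after the group means were removed, as a description of libraries that share scaling factors.

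Cd74, the invariant chain (chr18:60803848-60812652), moved with them. It measured 4429 and 3608 CPM in vehicle, 417, 1598 and 1423 in mobocertinib, 2241, 3718 and 1610 in T-DM1, 1970, 1440 and 2121 in the combination, and 2442, 2518 and 656 in resistant nodules. Only the second T-DM1 library reached the vehicle range on the TMM scale. Its r with H2-Aa was 0.99, both overall and within groups.

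Ciita, the coactivator (chr16:10480059-10528418), was scarce, at 24.7 and 19.9 CPM in vehicle. It measured 1.49, 12.3 and 10.1 CPM in mobocertinib, 32.5, 22.7 and 19.8 in T-DM1, 10.9, 6.38 and 9.28 in the combination, and 16.5, 20.6 and 4.99 in resistant nodules. All mobocertinib and combination libraries were below both vehicle libraries and below all T-DM1 libraries on the TMM scale. The T-DM1 and resistant libraries overlapped vehicle. On the TMM scale the group means were lowest in mobocertinib (7.96 ± 5.70 CPM, SD, n = 3) and the combination (8.84 ± 2.28, n = 3), which overlapped. Resistant (14.1 ± 8.11, n = 3), vehicle (22.3 ± 3.40, n = 2) and T-DM1 (25.0 ± 6.65, n = 3) followed in that order. In mean TPM vehicle was the lowest, at 0.900, against 1.66 in mobocertinib, 1.79 in the combination, 3.11 in resistant nodules and 5.25 in T-DM1. As a share of library counts, T-DM1 (0.00218% to 0.00344%) lay above both vehicle libraries (0.00167% and 0.00108%). Ciita counts amounted to 1.22% to 3.80% of H2-Aa counts within a library, and their r was 0.90 over the libraries and 0.90 within groups.

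The peptide exchange factor H2-DM is a pair of H2-DMa (chr17:34119541-34139101) and H2-DMb1 (chr17:34153072-34160230). H2-DMa measured 173 and 209 CPM in vehicle, 19.0, 52.3 and 38.4 in mobocertinib, 66.3, 120 and 52.0 in T-DM1, 53.9, 48.7 and 67.0 in the combination, and 53.1, 73.5 and 19.4 in resistant nodules. All 12 drug-exposed libraries lay below vehicle on the TMM scale. As a share of library counts, T-DM1 2 (0.0124%) was above vehicle (0.0117% and 0.0113%). H2-DMb1 measured 138 and 221 CPM in vehicle, 24.4, 57.6 and 22.1 in mobocertinib, 43.5, 151 and 45.4 in T-DM1, 38.5, 51.5 and 56.5 in the combination, and 19.8, 47.5 and 20.6 in resistant nodules. Only the second T-DM1 library entered the vehicle range on the TMM scale. H2-DMb1 has a near-identical neighbor, H2-DMb2, and the sources used here do not say how the authors' counting shared reads between them. H2-DMb2 counts were 6.92% to 94.1% of H2-DMb1 counts, so the split between these copies is uncertain. Of the exon bases of H2-DMa, 10.4% overlap Brd2 on the opposite strand.

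H2-Oa (chr17:34092340-34095234), the alpha chain of the H2-DM inhibitor H2-O, is a B cell and thymic gene and was near the lower limit of detection. It measured 0.900 and 1.26 CPM in vehicle, 0.498, 2.84 and 2.38 in mobocertinib, 13.1, 1.86 and 1.57 in T-DM1, 3.45, 2.56 and 0.921 in the combination, and 6.83, 2.41 and 0.926 in resistant nodules. The first T-DM1 and the first resistant library were the highest. The summed level of 8 B cell markers was also highest in these 2 libraries, at 224 and 79.2 CPM, against 7.25 to 76.1 in the other 12, and its part in the H2-Oa values was not tested. Antisense reads from BC051537, which overlaps 22.8% of H2-Oa exon bases, could also be counted here if the counting ignored strand.

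Ctss, the protease that trims the invariant chain (chr3:95526786-95556403), and Ifi30, the lysosomal thiol reductase that opens disulfide bonds of antigens (chr8:70762774-70766663), are not confined to class II positive cells. Ctss measured 1303 and 1580 CPM in vehicle, 225, 558 and 574 in mobocertinib, 304, 672 and 401 in T-DM1, 481, 328 and 401 in the combination, and 357, 472 and 120 in resistant nodules. Ifi30 measured 281 and 263 CPM in vehicle, 101, 111 and 151 in mobocertinib, 127, 162 and 82.2 in T-DM1, 133, 109 and 123 in the combination, and 109, 95.1 and 61.4 in resistant nodules. For both genes every drug-exposed library lay below both vehicle libraries on the TMM scale, and the drug-exposed groups overlapped each other. As a share of library counts this held for Ctss (at most 0.0694% against 0.0882% and 0.0856%). It did not hold for Ifi30, at 0.0172% in mobocertinib 3 against 0.0190% and 0.0142% in vehicle. In TPM, Ctss was 134.4 to 663.8 against 492.7 and 419.5 in vehicle, and Ifi30 93.39 to 239.6 against 145.1 and 94.71.

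Against vehicle, 7 of the 10 genes were lower in mobocertinib nodules at an adjusted p below 0.05 (edgeR quasi-likelihood test, Benjamini-Hochberg over all genes tested), and 0 were higher. The share of all tested genes called lower was 16.1%, and called higher 16.8%. The changes, on the log2 scale, were −2.03 ± 0.64 (SE) for H2-Aa, −1.74 ± 0.60 for H2-Ab1, −1.81 ± 0.60 for Cd74, −2.38 ± 0.51 for H2-DMa, −2.37 ± 0.59 for H2-DMb1, −1.67 ± 0.52 for Ctss and −1.17 ± 0.31 for Ifi30. The edgeR adjusted p ran from 0.00436 for H2-DMa to 0.0408 for H2-Ab1. Ciita, at −1.48 ± 0.68, was not called (edgeR adjusted p = 0.108), and neither were H2-Eb1 (−0.75 ± 1.25) and H2-Oa (0.82 ± 1.10). All 3 mobocertinib libraries lay below both vehicle libraries for 8 of the 10 genes, against 28.3% of tested genes. The median change of the 10 genes was −1.70, beside 0.09 over all genes. In TPM 0 were called, where 3.08% of all genes were lower and 55.0% higher, and the median was −0.18, with 10 of 10 genes below the all-gene median of 1.11. On the TMM scale the count was 3 without mobocertinib 1, beside 2304 of 17904 genes called lower. Calls were fewer with either vehicle library left out, in fits with 1 vehicle library. The median change of the 10 genes was −1.66 without vehicle 1 and −1.57 without vehicle 2.

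In T-DM1 nodules, 2 of the 10 genes were lower than in vehicle, Ctss at −1.65 ± 0.52 (edgeR adjusted p = 0.0304) and Ifi30 at −1.13 ± 0.31 (edgeR adjusted p = 0.0146), and 0 were higher. The shares over all genes were 14.9% lower and 16.7% higher. The chains had smaller values that were not called, −0.81 ± 0.64 for H2-Aa, −0.34 ± 0.60 for H2-Ab1 and 0.82 ± 1.30 for H2-Eb1, and so did Cd74 (−0.67 ± 0.60), H2-DMb1 (−1.16 ± 0.58) and Ciita (0.16 ± 0.69). H2-DMa stood at −1.27 ± 0.51 (edgeR adjusted p = 0.0729) and H2-Oa at 2.35 ± 1.16 (edgeR adjusted p = 0.136). For 4 of the 10 genes all T-DM1 libraries lay below vehicle, against 26.0% of tested genes. The median change was −0.74, beside 0.18 over all genes. In TPM, 0 were lower, and Ciita and H2-Oa were called higher, beside 3.53% of all genes lower and 57.5% higher, and 6 of 10 lay below the all-gene median. On the TMM scale, leaving out T-DM1 3 ended both calls, beside 1715 of 17883 genes called lower. Leaving out T-DM1 1 left only Ifi30 (1742 of 17774), and leaving out T-DM1 2 gave 4 (2676 of 17850). Calls were fewer with either vehicle library left out, in fits with 1 vehicle library. The median change of the 10 genes was −0.55 without vehicle 1 and −0.69 without vehicle 2.

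In combination nodules, 4 genes were lower than in vehicle: Ctss (−1.84 ± 0.53), H2-DMa (−1.76 ± 0.51), H2-DMb1 (−1.88 ± 0.58) and Ifi30 (−1.16 ± 0.31), with edgeR adjusted p from 0.0119 to 0.0249. None of the 10 was higher. Over all genes, 17.4% were lower and 17.6% higher. H2-Aa, at −1.53 ± 0.64, was not called (edgeR adjusted p = 0.0798), and neither were H2-Ab1 (−1.04 ± 0.60), Cd74 (−1.12 ± 0.60), Ciita (−1.34 ± 0.68), H2-Eb1 (0.14 ± 1.27) and H2-Oa (1.09 ± 1.11). All 3 libraries lay below vehicle for 8 of the 10 genes, against 29.9% of tested genes. The median was −1.25, beside 0.08 over all genes. In TPM 0 were called, where 3.39% of all genes were lower and 56.9% higher, and 8 of 10 lay below the all-gene median. On the TMM scale the count was 2 without combination 1 and 1 without combination 2, beside 2013 of 17904 and 2425 of 17870 genes called lower. It rose to 8 when only these 2 groups were fitted, beside 3150 of 16443. Calls were fewer with either vehicle library left out, in fits with 1 vehicle library. The median change of the 10 genes was −1.11 without vehicle 1 and −1.24 without vehicle 2.

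In resistant nodules, the same 4 genes were lower than in vehicle: Ctss (−2.19 ± 0.53), H2-DMa (−1.97 ± 0.51), H2-DMb1 (−2.61 ± 0.59) and Ifi30 (−1.62 ± 0.31), with edgeR adjusted p from 0.00142 to 0.00866. None was higher. Over all genes, 19.0% were lower and 22.0% higher. H2-Eb1 had the largest negative value, −2.85 ± 1.28, but was not called (edgeR adjusted p = 0.0927), and its call depended on resistant 3, without which it was called lower at −4.32. The values that were not called were −1.15 ± 0.64 for H2-Aa, −1.07 ± 0.60 for H2-Ab1, −1.10 ± 0.60 for Cd74, −0.67 ± 0.68 for Ciita and 1.65 ± 1.13 for H2-Oa. All 3 libraries lay below vehicle for 7 of the 10 genes, against 25.6% of tested genes. The median was −1.38, beside 0.18 over all genes, and in TPM 0 were called with 9 of 10 below the all-gene median, where 4.81% of all genes were lower and 59.7% higher. At an unadjusted p below 0.05, 0 of the 10 genes were higher than vehicle in any of these 4 comparisons on the TMM scale. The 4 vehicle comparisons share their 2 control libraries, so their common calls are not independent.

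The genes called against vehicle changed with an adjustment for transcript length and GC content. With these offsets, Ifi30 was called in 0 of the 4 comparisons (−0.75 to −0.49), and Ctss was called only in resistant nodules (−1.72). Ciita, which has the longest transcript of the 10, was called lower in mobocertinib (−2.71), the combination (−2.54) and resistant nodules (−1.88). H2-Ab1 and Cd74 lost their calls in mobocertinib, H2-DMb1 in the combination, and H2-Aa was gained in the combination and in resistant nodules. The members called lower numbered 4 in mobocertinib, 0 in T-DM1, 3 in the combination and 5 in resistant nodules, beside 17.7%, 19.6%, 17.9% and 21.6% of all genes.

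**Figure D2:**
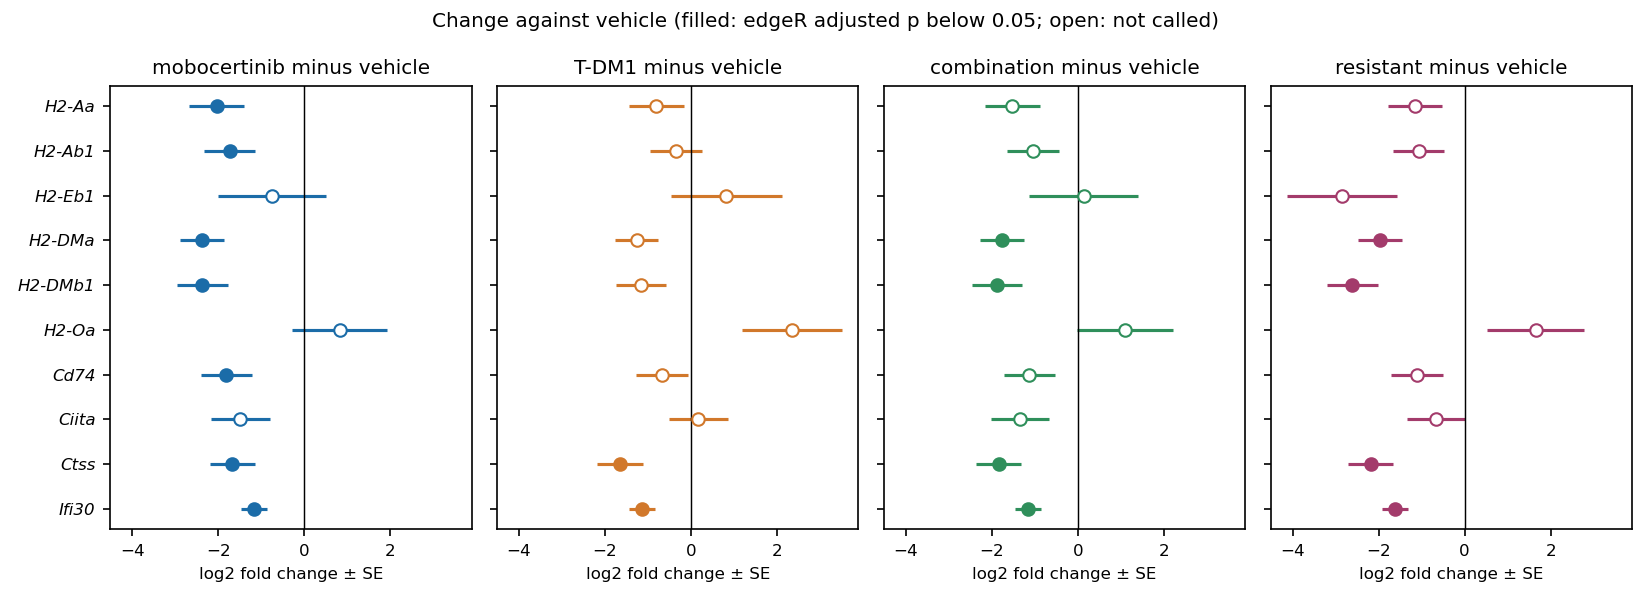
Change of each class II presentation gene against vehicle. The horizontal axis is the edgeR log2 fold change on TMM-scaled counts, bars are ± 1 SE, and filled points have an adjusted p below 0.05: 7 genes in mobocertinib, 2 in T-DM1, 4 in the combination and 4 in resistant nodules, all lower. In TPM none of these lower calls was made.

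The leukocyte content gives a second reference within each library. The summed level of 6 pan-leukocyte markers was 634 and 801 CPM in vehicle, 286 to 532 in mobocertinib, 355 to 662 in T-DM1, 390 to 462 in the combination and 148 to 569 in resistant nodules, and edgeR called 0 of the 6 genes in any comparison with vehicle (at an unadjusted p below 0.05, 1 was lower in mobocertinib, 0 in T-DM1, 1 in the combination and 2 in resistant nodules). Counts per count of these markers are free of library scaling but not of the difference in transcript length. Genes with transcripts over 5 kb took 6.13% and 4.51% of vehicle counts, against 12.55% to 20.05% elsewhere. The part of length in these ratios was not tested. H2-Aa counts per count of these markers were 2.65 and 1.68 in vehicle. They were 0.426, 1.04 and 0.972 in mobocertinib, 1.76, 1.83 and 1.49 in T-DM1, 1.19, 1.05 and 1.55 in the combination, and 1.74, 1.93 and 1.33 in resistant nodules. For H2-Aa the mobocertinib and combination ratios were below both vehicle ratios, T-DM1 and resistant overlapped vehicle, and mobocertinib was below all T-DM1 and resistant libraries. For Cd74 only mobocertinib (1.46 to 3.54) lay below vehicle (4.50 and 6.99), and the combination overlapped it (3.70 to 5.31). Per count of the single leukocyte marker Ptprc, H2-Aa in resistant nodules (16.2 to 24.1) lay below vehicle (32.9 and 38.6), so the placing of the groups depends on the reference. The ratio for H2-DMa was 0.273 and 0.261 in vehicle and 0.0662 to 0.181 in the other 12 libraries. The ratio for Ctss was 2.06 and 1.97 in vehicle and 0.626 to 1.24 elsewhere. For these 2 genes no drug-exposed library reached the vehicle range. For Ifi30 the T-DM1 (0.232 to 0.262) and combination (0.28 to 0.309) ratios lay below vehicle (0.328 and 0.443). Mobocertinib (at most 0.352) and resistant nodules (at most 0.415) overlapped vehicle for Ifi30.

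**Figure D3:**
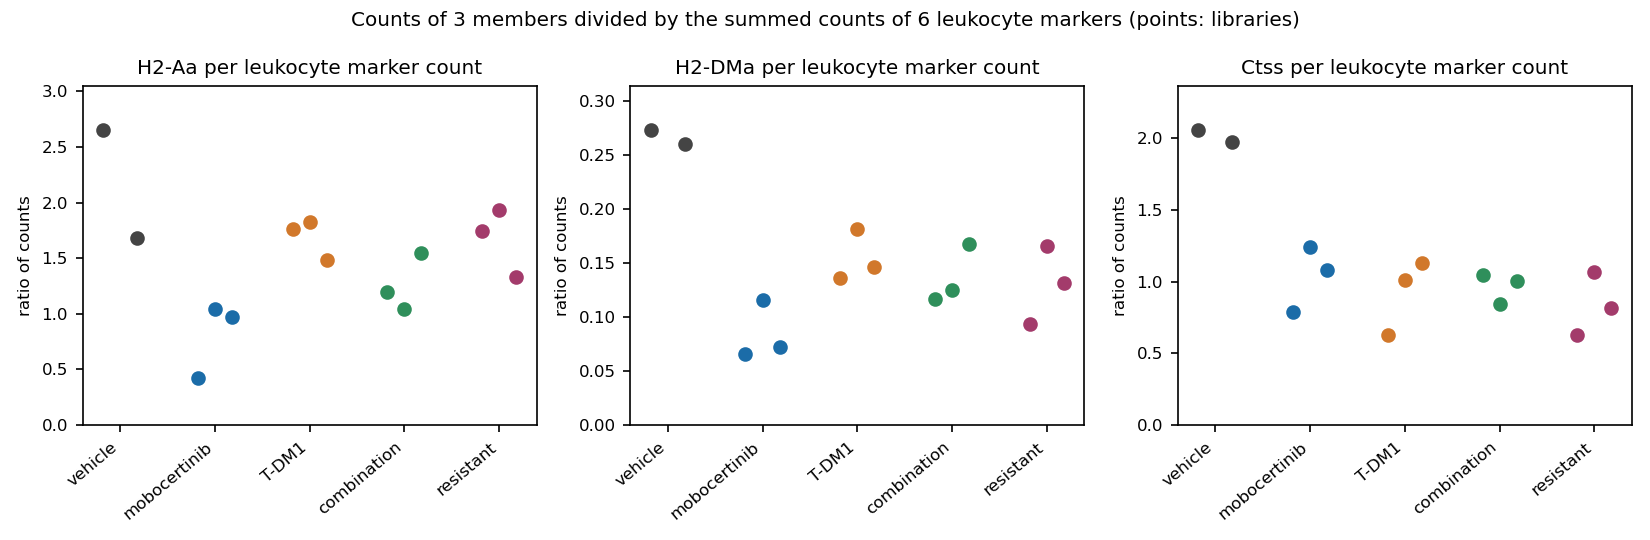
Counts of H2-Aa, H2-DMa and Ctss divided by the summed counts of 6 leukocyte markers in the same library. Points are libraries and the vertical axes are ratios of counts that start at 0. The ratios are free of library scaling but not of the transcript length difference between vehicle and the other libraries. The 12 drug-exposed libraries lie below vehicle for Ctss (at most 1.24 against 1.97) and H2-DMa (at most 0.181 against 0.261), while for H2-Aa T-DM1 and resistant nodules overlap vehicle.

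Some markers of cells that carry class II differed between vehicle and the other groups, and their part in the results was not tested. Over all genes, 14.9% to 19.0% were lower and 16.7% to 22.0% higher in these comparisons. The list shares called lower were 25% to 50% for alveolar macrophages and 25% for dendritic cells. For alveolar type 2 cells the share was 14.3%, under the all-gene share. Those called higher were 12.5% for B and T cells, also under it, and 66.7% for endothelial cells. The sum of 8 alveolar macrophage markers was 8432 and 9624 CPM in vehicle and at most 3515 elsewhere, with 2 of 8 genes lower in mobocertinib, 3 in T-DM1, 4 in the combination and 4 in resistant nodules. Fabp4 and Plet1 were lower in all 4. Chil3, at 8665 and 7387 CPM, made up most of the vehicle sum. Chil3, Fabp4, Plet1 and Pparg were below both vehicle libraries in every drug-exposed library, whereas Marco, Siglecf, Ear2 and Krt79 overlapped vehicle. In T-DM1 2, Marco was 79.44 CPM (vehicle 7.739 and 53.46) and Siglecf 31.72 (34.79 and 10.99). Ear2 was 134.2 CPM there (358.4 and 119.1) and Krt79 7.706 (2.22 and 10.69). The sum of 8 dendritic cell markers was 238 and 547 CPM in vehicle and 29.3 to 136 elsewhere. Of these, Itgax and Batf3 were lower in all 4 comparisons, and Zbtb46 was higher in resistant nodules. Itgax, at 213 and 515 CPM, made up nearly all of the vehicle sum and is also an alveolar macrophage gene, and Zbtb46 was at 0 in 1 of the 2 vehicle libraries. The 7 alveolar type 2 markers summed to 139800 and 207600 CPM in vehicle and 8541 to 76690 elsewhere, with Sftpc alone called lower, in all 4. The 8 markers of monocytes and interstitial macrophages overlapped between vehicle (332 and 511 CPM) and each other group, and edgeR called 0 of 8, with 1 higher at an unadjusted p below 0.05 in resistant nodules and 0 in the others. The 8 B cell markers summed to 34.6 and 76.1 CPM in vehicle and 7.25 to 224 elsewhere. Most of the vehicle sum was Cd79b (29.1 and 65.4 CPM), which was lower in mobocertinib, while Pax5 was at 0 in both vehicle libraries and was called higher in all 4 comparisons. The 8 T cell markers summed to 14.8 and 26.8 CPM in vehicle and 6.87 to 85.7 elsewhere, and Cd4, at 0 in 1 vehicle library, was higher in all 4 comparisons. Endothelial markers were higher in all 4 groups for 4 of 6 genes.

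Among the drug-exposed groups, none of the 10 genes was called in any of 4 comparisons by edgeR, and DESeq2 and limma-voom also called 0. In T-DM1 against mobocertinib all 10 values were positive, from 0.02 to 1.65 on the log2 scale, with a median of 1.21 beside 0.01 over all genes. Ciita (1.65 ± 0.63, SE), H2-Ab1 (1.39 ± 0.55), H2-DMa (1.12 ± 0.47) and H2-DMb1 (1.20 ± 0.53) had an unadjusted p below 0.05, but the smallest edgeR adjusted p was 0.404, and 0.0279% of all genes were called. Without T-DM1 2 the values of H2-DMb1 and H2-DMa were 0.36 and 0.69, and the median was 0.83. For H2-Aa, H2-Ab1, Cd74 and Ciita every T-DM1 library was above every mobocertinib library. The share of all tested genes separated in this way was not counted for comparisons without vehicle, so such separations are a description only. Ctss (0.02 ± 0.47) and Ifi30 (0.04 ± 0.28) had values near 0.

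The combination against mobocertinib gave values from −0.17 to 0.89, with 0 of 10 called, 0 at an unadjusted p below 0.05, and 0% of all genes called in edgeR. The combination against T-DM1 gave 10 negative values, from −1.50 to −0.02, with 0 called and 0% of all genes called. Ciita, at −1.50 ± 0.62, was the only member with an unadjusted p below 0.05 (edgeR adjusted p = 0.940), and its 3 combination libraries lay below all 3 T-DM1 libraries. Resistant against mobocertinib nodules gave values from −2.09 to 0.88, with 0 called, 0 at an unadjusted p below 0.05, and 0.00558% of all genes called. The lowest was H2-Eb1 (−2.09 ± 1.18, edgeR adjusted p = 0.630), which turned to 0.20 without mobocertinib 2. These comparisons share libraries with each other and with those against vehicle.

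Libraries within a group differed widely. Mobocertinib 1 was the lowest of its group for 8 of the 10 genes and the lowest of all 14 for 6. Resistant 3 was the lowest of its group for 8, T-DM1 3 likewise for 8, and T-DM1 2 the highest of its group for 8. The ratio of highest to lowest library for H2-Aa was 4.24 in mobocertinib and 5.03 in resistant nodules, against 1.25 in vehicle, 1.51 in the combination and 2.30 in T-DM1. Mobocertinib 1 and resistant 3 also had the lowest leukocyte marker sums, 286 and 148 CPM. Per leukocyte marker count, H2-Aa in resistant 3 (1.33) was close to the rest of its group, whereas in mobocertinib 1 (0.426) it was the lowest of all libraries.

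H2-Eb1, the beta chain of the I-E molecule (chr17:34305867-34316674), did not follow the other chains. It measured 49.5 and 397 CPM in vehicle, 46.4, 343 and 7.39 in mobocertinib, 318, 670 and 198 in T-DM1, 191, 334 and 211 in the combination, and 13.1, 9.25 and 70.9 in resistant nodules. As a share of H2-Aa counts in the same library it was 2.95% and 29.5% in vehicle, 38.1%, 73.0% and 1.43% in mobocertinib, 37.1%, 55.3% and 37.6% in T-DM1, 34.7%, 82.0% and 34.3% in the combination, and 1.32%, 1.08% and 36.0% in resistant nodules. The shares fell into separate clusters, with 4 libraries from 1.08% to 2.95% (vehicle 1, mobocertinib 3, resistant 1 and resistant 2) and 10 from 29.5% to 82.0%. The low libraries came from 3 groups, and H2-Ab1 in them was 60.4% to 74.7% of H2-Aa, below the 75.3% to 108% of the other 10. Class II genes differ in sequence between MHC haplotypes, which can alter how reads map to the reference. Whether the libraries differed in haplotype was not tested, so the H2-Eb1 values may not compare the amount of RNA alone. The SE of the H2-Eb1 change was 1.25 to 1.30 against vehicle, and its direction changed when single libraries were left out, from −2.99 to 1.53 in mobocertinib and from −0.66 to 2.44 in the combination.

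**Figure D4:**
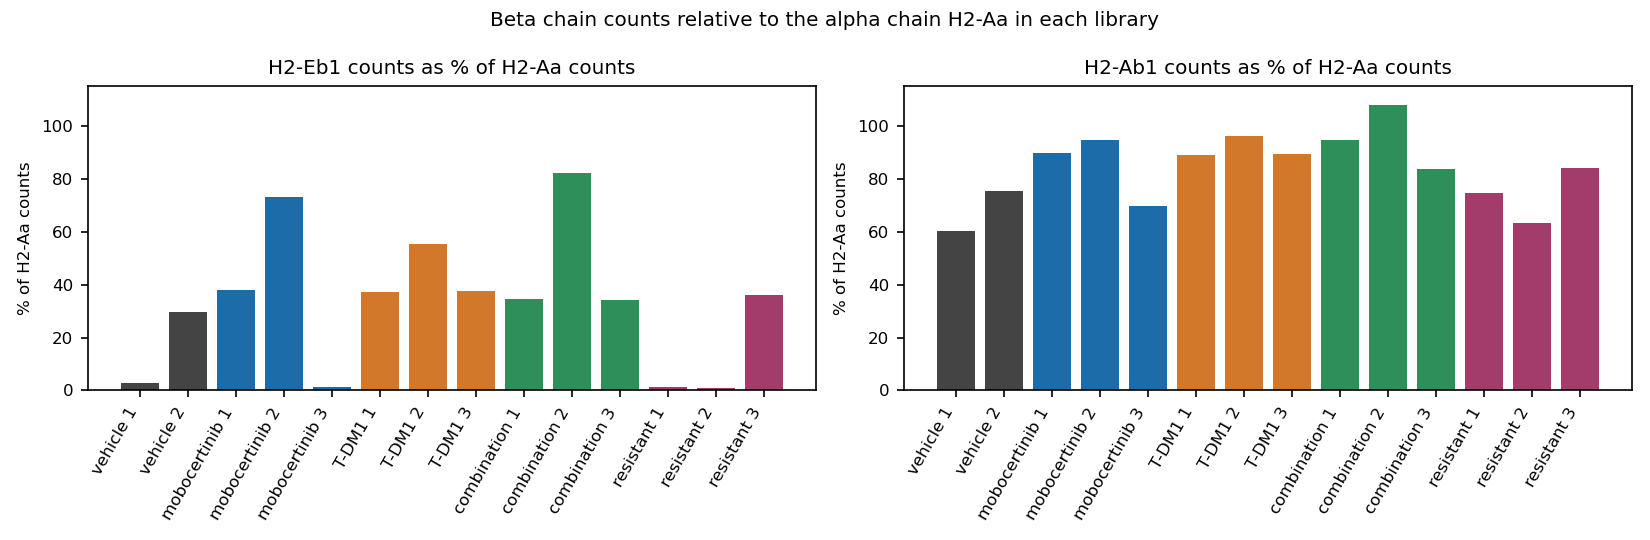
Counts of the beta chains H2-Eb1 (left) and H2-Ab1 (right) as a percentage of H2-Aa counts in each of the 14 libraries, colored by group, on axes from 0. H2-Eb1 is below 3% in vehicle 1, mobocertinib 3, resistant 1 and resistant 2 and at least 29.5% elsewhere, while H2-Ab1 is 60.4% to 74.7% in these 4 and 75.3% to 108% elsewhere.

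The partner of H2-Eb1, the alpha chain H2-Ea, is not made in mice of the b haplotype, to which C57BL/6 belongs. H2-Ea reads were few: 26.8 and 6.39 CPM in vehicle, 0.0996, 0 and 2.70 in mobocertinib, 2.12, 0.278 and 1.41 in T-DM1, 0.933, 0 and 0.921 in the combination, and 5.27, 3.48 and 0.772 in resistant nodules. Relative to H2-Aa, the 4 libraries low in H2-Eb1 held 0.407% to 1.59% H2-Ea and the other 10 held 0 to 0.474%, so the ranges overlapped. H2-DMb2 as a share of H2-DMb1 was 58.3%, 67.5%, 94.1% and 31.3% in vehicle 1, mobocertinib 3, resistant 1 and resistant 2, against 6.92% to 85.1% in the others, an overlap. Without these 4 libraries, an alternative chosen after their values were seen, the median change of the 10 genes against vehicle was −1.83 in mobocertinib. It was −0.55 in T-DM1, −1.11 in the combination and −2.52 in resistant nodules, beside 0.13 to 0.40 over all genes. That fit keeps 1 vehicle and 1 resistant library, which are assumed to vary like the other groups.

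Other genes of the pathway, from lists chosen with earlier results known, were called in part against vehicle and not among the drug-exposed groups, where edgeR called 0 in 112 tests of 28 genes and 5 had an unadjusted p below 0.05. Of the 3 other class II molecules, H2-DMb2, the second DM beta chain, was lower in all 4 comparisons, at −2.80 ± 0.59 (SE) in mobocertinib, −1.73 ± 0.58 in T-DM1, −2.51 ± 0.58 in the combination and −2.39 ± 0.58 in resistant nodules. H2-Ob and H2-Eb2 were not called.

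Of 14 genes of class II transcription and interferon-gamma signaling, 13 were tested, and Ifng itself did not pass the filter. Against vehicle, 1 was lower and 2 higher in mobocertinib, 0 and 2 in T-DM1, 1 and 2 in the combination, and 2 and 3 in resistant nodules. These are 0% to 15.4% lower and 15.4% to 23.1% higher, near or under the all-gene shares of 14.9% to 19.0% lower and 16.7% to 22.0% higher. Rfx5, the DNA-binding subunit of the X box factor, was higher in all 4, by 1.60 ± 0.39 (SE) in mobocertinib, 1.94 ± 0.39 in T-DM1, 1.65 ± 0.39 in the combination and 1.71 ± 0.39 in resistant nodules. So was Jak1, a kinase of the interferon receptors, by 1.13 to 1.43. Ifngr2, a chain of the interferon-gamma receptor, was lower in mobocertinib (−1.11 ± 0.30), the combination (−0.88 ± 0.30) and resistant nodules (−1.37 ± 0.30). In resistant nodules Creb1, which binds cAMP response elements, was higher (1.31 ± 0.37).

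Of 8 genes of endosomal proteolysis and class II turnover, 2 were lower in mobocertinib and 3 in each other group, and 1 was higher in each. These are 25.0% to 37.5% lower, against 14.9% to 19.0% of all genes, and 12.5% higher, against 16.7% to 22.0%. The cathepsins Ctsd and Ctsh were lower in all 4 comparisons, Ctsd by −2.32 to −3.52 and Ctsh by −2.08 to −2.90. Lgmn, an endosomal protease that cuts after asparagine, was lower in T-DM1 (−1.05 ± 0.26, SE) and resistant nodules (−0.996 ± 0.264). Marchf1, a ubiquitin ligase that removes class II from the surface, was lower in the combination (−1.88 ± 0.64), and the related Marchf8 was higher in all 4, by 0.70 to 0.92. Of 4 costimulatory genes, Cd80 was lower in resistant nodules (−2.51 ± 0.84) and none was called elsewhere.

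The genes most like the mean log2 CPM of H2-Aa, H2-Ab1, H2-Eb1 and Cd74, among 12059 genes outside the set, were sought over the 14 libraries. The largest Pearson r belonged to Alyref2 (0.89), Bub1b (0.89), Impa2 (0.89), Birc5 (0.87) and Ptger4 (0.86), followed by Racgap1, Kif22, Tgfb1, Rnf122 and H2-M2. After the group means were removed they were Ypel1 (0.96), Zfp41 (0.90), Rgs10 (0.89), St6gal1 (0.88) and Snx22 (0.88), with Paqr4, Rem1, Tgfb1 and Rab19 among the rest of the 10. Only Tgfb1 stood on both lists, at 30.9 to 99.4 CPM. These values describe libraries that share scaling factors and vehicle make-up. H2-Eb1 ranged from 7.39 to 670 CPM, and its r with the other genes of the mean was 0.10 to 0.29. The mean therefore also carries the split of the libraries by H2-Eb1. Within the set, H2-Aa correlated at 0.92 with H2-DMa, 0.78 with Ctss, 0.70 with Ifi30, 0.67 with H2-DMb1, 0.36 with H2-Oa and 0.10 with H2-Eb1 over the same libraries.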

How the data were processed

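Total RNA of 14 lung tumor nodule libraries was measured by sequencing. The authors deposited a table of whole-number counts for 55291 gene symbols and a table of TPM for 47606 genes, and all columns of both were matched to samples by title. The mm10 build, STAR and RSEM are named in the submitters' processing notes. Their roles and versions, strand and annotation are not given in the sources examined. Counts were tested in edgeR 4.0.16 (R 4.3.3; TMM factors, filterByExpr by group, robust quasi-likelihood F-test) in 1 fit of 14 libraries and 17933 genes with 9 residual degrees of freedom. Calls had a p below 0.05 after Benjamini-Hochberg adjustment over all genes tested. The SE is the log2 fold change divided by the square root of F. Positions and exon overlaps came from GENCODE M21.

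Alternatives were RLE and upper-quartile factors, no filter, DESeq2 1.42.0, limma-voom (limma 3.58.1), log2(TPM + 1) in limma-trend (TPM of at least 1 in 2 libraries), offsets for transcript length and GC content (17565 genes), the compared groups alone, and leaving out each library. The procedure was tested on simulated counts.

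Members, lists and alternatives were chosen with earlier results of these data known. The X box letters were shortened after a first search with a longer form, which matched the same members. Named genes were all 10 members, up to 4 called genes of each pathway list by smallest p, and the 10 genes most like the mean of 4 members (mean log2 CPM of at least 1, without predicted genes, immune receptor segments and pseudogenes). Of the genes this rule names, 2 are not reported here. Marker lists covered dendritic, B and T cells, alveolar macrophages, monocytes with interstitial macrophages, leukocytes, alveolar type 2, epithelial and endothelial cells.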

Additional observations from a re-analysis of the deposited data

How the results depend on the processing

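Of the fold changes of single genes under other settings, 538 kept their direction and side of the threshold, 65 lost a call, 17 gained one and 30 changed direction. Counts of called genes moved by over 1.5 times in 20 cases and did not in 212. Every count of genes called higher, and every count among the drug-exposed groups, was 0 in the main fit. The 212 are therefore mostly 0s that stayed 0 and do not measure how stable the calls against vehicle were. RLE and upper-quartile factors, no filter, DESeq2 and limma-voom moved no count by over 1.5 times. Genes lower against vehicle numbered 7 in mobocertinib, 2 in T-DM1, 4 in the combination and 4 in resistant nodules. In log2(TPM + 1) they numbered 0 in each, with 2 higher in T-DM1, where 3.08% to 4.81% of all genes were lower and 55.0% to 59.7% higher. With length and GC offsets they numbered 4 in mobocertinib and 0 in T-DM1. With the compared groups alone they numbered 1 in T-DM1 and 8 in the combination. Of all genes, 1985 of 16766 and 3150 of 16443 were then lower. Leaving out 1 drug-exposed library at a time gave 3 to 6, 0 to 4, 1 to 3 and 4 to 5. Of 17761 to 17922 genes, 1662 to 2304, 1715 to 2676, 2013 to 2425 and 2916 to 3392 were then lower. With either vehicle library left out, calls were mostly fewer. Median changes were then −1.66 and −1.57 in mobocertinib and −0.55 and −0.69 in T-DM1. They were −1.11 and −1.24 in the combination and −1.29 and −1.17 in resistant nodules. A library left alone in its group by such a fit was assumed to vary like the other groups. In log2(TPM + 1) the direction changed for H2-Eb1 (0.22), Ciita (0.40) and Ifi30 (0.50) in mobocertinib. In T-DM1 it changed for H2-Aa (0.89), H2-Ab1 (1.28), H2-DMa (0.37), H2-DMb1 (0.59), Cd74 (0.93) and Ifi30 (0.51). In the combination it changed for H2-Aa (0.34), H2-Ab1 (0.77), H2-DMa (0.016), H2-DMb1 (0.15), Cd74 (0.62), Ciita (0.56) and Ifi30 (0.61), and in resistant nodules for H2-Aa (0.29), H2-Ab1 (0.55), Cd74 (0.47), Ciita (1.07) and Ifi30 (0.17). Ciita in T-DM1 was −1.03 with length and GC offsets and −0.0053 to 0.36 without single libraries. H2-Eb1 in the combination was −0.031 with upper-quartile factors, −0.67 without the 4 libraries low in H2-Eb1, and −0.66 to 2.44 without single libraries. It was −2.99 to 1.53 in mobocertinib, and −3.57 to 0.20 in resistant against mobocertinib nodules. H2-Oa in resistant nodules was −0.42 without the 4 libraries, from 1 library (18 counts) against 1 (17 counts). The cause was not tested. No paired analysis was possible because the labels give no replicate numbers shared between groups.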

Other observations

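The split of the libraries by H2-Eb1 was followed in other genes, named here after their values were seen. Among 12059 genes, ordered by how closely their log2 CPM followed the log2 ratio of H2-Eb1 to H2-Aa over the 14 libraries, the nearest was H2-T22, a nonclassical class I gene on chr17:36037128-36042747 (mm10). It measured 9.36 and 85.6 CPM in vehicle, 36.0, 127 and 6.08 in mobocertinib, 55.3, 51.5 and 50.1 in T-DM1, 47.2, 80.5 and 58.3 in the combination, and 5.20, 4.81 and 31.9 in resistant nodules. The 4 libraries low in H2-Eb1 (vehicle 1, mobocertinib 3, resistant 1 and resistant 2) were the 4 lowest in H2-T22, from 4.81 to 9.36 CPM, and the other 10 ranged from 31.9 to 127. The class I gene H2-T23, the third in that order, was 18.7 to 54.4 CPM in these 4 and 92.9 to 301 in the other 10. The valyl-tRNA synthetase gene Vars, the fourth, was 14.5 to 38.8 CPM in these 4 and 44.8 to 127 in the other 10.

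These 3 genes lie between 33 and 37 Mb of chromosome 17, as do H2-Aa, H2-Ab1 and H2-Eb1. That stretch holds 3 of the 10 genes nearest in the order and 121 of the 12059 candidates (1.0%). The order was built from H2-Eb1 and H2-Aa, which lie in this stretch, and the genes were named after their values were seen. These counts are therefore a description and not a test. The rest of the 10, on other chromosomes, were Tmem102 (the second), Pwwp2b, Creb3, Micall2, Amigo2 (in the inverse direction), Lsr and Cdipt. The epithelial marker sum was 1500 CPM in mobocertinib 3, 1475 in resistant 1, 1511 in resistant 2 and 3468 in vehicle 1. It was 2915 to 5568 in the other 10 libraries, and its part in the split was not tested. The labels give the strain as C57BL/6 for all 14 libraries, and no genotype at this locus is stated in the labels.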
